A study of Mus musculus with 2 samples.

Results

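Glycolysis and the pentose phosphate pathway were followed at the transcript level through 34 genes for hexose carriers, the enzymes from hexokinase to lactate dehydrogenase, lactate carriers and both arms of the pentose phosphate pathway. The genes were taken from a list of named pathway members, and no cutoff on a measured value was used. The list was chosen with earlier results of these data known, so shares over it are a description. All 34 had a probe, out of 20655 genes named on the array, and all 34 were well above background on both arrays, as were 16885 genes in all. RAW264.7 is an established mouse macrophage line from an ascites tumor induced by Abelson leukemia virus in a male BALB/c mouse. One culture was given vehicle and another was given 10 μM IR-61, a lipophilic cationic near-infrared dye that accumulates in mitochondria, and RNA was taken after 24 h. Both were kept in DMEM with heat-inactivated serum, and the labels name no inflammatory stimulus for either. RNA of each culture was read on 1 single-colour Agilent mouse array.

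Glycolysis splits glucose in the cytosol and yields pyruvate, which is either reduced to lactate or oxidized in mitochondria. The pentose phosphate pathway branches off at glucose 6-phosphate, where its oxidative arm makes NADPH and its non-oxidative arm exchanges sugar phosphates with glycolysis. Macrophages that are activated by bacterial products are known for a high rate of glycolysis and of lactate release, which is why these genes are of interest beside a compound that acts on mitochondria.

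Because each condition had a single array, the spread between cultures is unknown, the conditions were not tested against each other, and no p-value is given. A difference is the log2 signal with IR-61 minus that with vehicle, after the 75th percentile of each array was subtracted. The IR-61 array was 1.40-fold brighter at that percentile, so each difference is relative to this overall level. The median difference over all 16885 measured genes was 0.10. The error given here is the spread between spots of a probe on 1 array. It gave an expected SD of a difference between 0.075 and 0.46 for these genes, with a median of 0.095. This SD does not contain the difference between cultures or that between probes of a gene, which for *Gapdh* ran from −0.65 to −0.03. In the text a gene is called higher or lower past the limit where its difference reached 1.5-fold (0.58 on the log2 scale). That limit was passed downwards by 5.69% and upwards by 9.79% of all measured genes.

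The cell type was checked on marker lists. Of 8 macrophage markers 7 had a probe and all 7 were well above background on both arrays, with unscaled signals from 1322 to 95036 with vehicle and from 1807 to 149992 with IR-61, summing to 195024 and 372695. The 5 fibroblast markers were also well above background on both arrays, with sums of 59912 and 105270. Among them the collagen genes *Col1a1* and *Col1a2* and the proteoglycan gene *Dcn* had signals of 27148, 15029 and 16543 with vehicle, although these genes define fibroblasts and not macrophages. Whether the cultures held other cells beside macrophages, or another line, was not tested, and every value is given for the cultures as labelled. The 3 B cell markers summed to 581 and 488 and the 3 T cell markers to 755 and 1058, all of them above background, whereas 2 of 3 epithelial markers, *Epcam* and *Cdh1*, were not above background on either array and the 3 summed to 236 and 240. After scaling, the macrophage markers *Adgre1*, *Fcgr1* and *Itgam* differed by 1.03, 0.99 and 0.65, whereas *Csf1r*, *Mertk*, *Ptprc* and *Lyz2* lay between −0.18 and 0.06. The fibroblast markers ranged from −0.09 for *Dcn* to 0.72 for *Thy1*, with *Col1a1* at 0.62. The B cell marker *Ms4a1* was at −1.46, the largest difference of any marker. The part of these marker differences in the results below was not tested, and in a bulk culture fewer cells of a type and less RNA per cell cannot be told apart.

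Across the 34 genes most differences were small and a few stood apart in both directions. The median difference was −0.08, against 0.10 for all measured genes, and 24 of the 34 lay below the all-gene median. Lower past the limit were 4 of 34 (11.8%, against 5.69% of all genes), namely *Slc2a6*, *Hk3*, *Pfkp* and *Tkt*. Higher past the limit were 5 of 34 (14.7%, against 9.79%), namely *Pfkfb1*, *Pfkfb3*, *Aldoc*, *Ldhb* and *Rpe*. At a limit of 2-fold 2 genes were lower and 1 was higher, where 1.39% and 1.99% of all genes were. The other 25 genes had differences from −0.50 to 0.51 with a median of −0.10. With no scaling the median of the 34 genes was 0.40 and that of all genes 0.59, a distance of −0.18 as with scaling. Under the other scalings, filters and rules for probes that were tried as alternative settings, the distance lay between −0.18 and −0.11, except with normexp background correction, where it turned to 0.01.

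**Figure D1:**
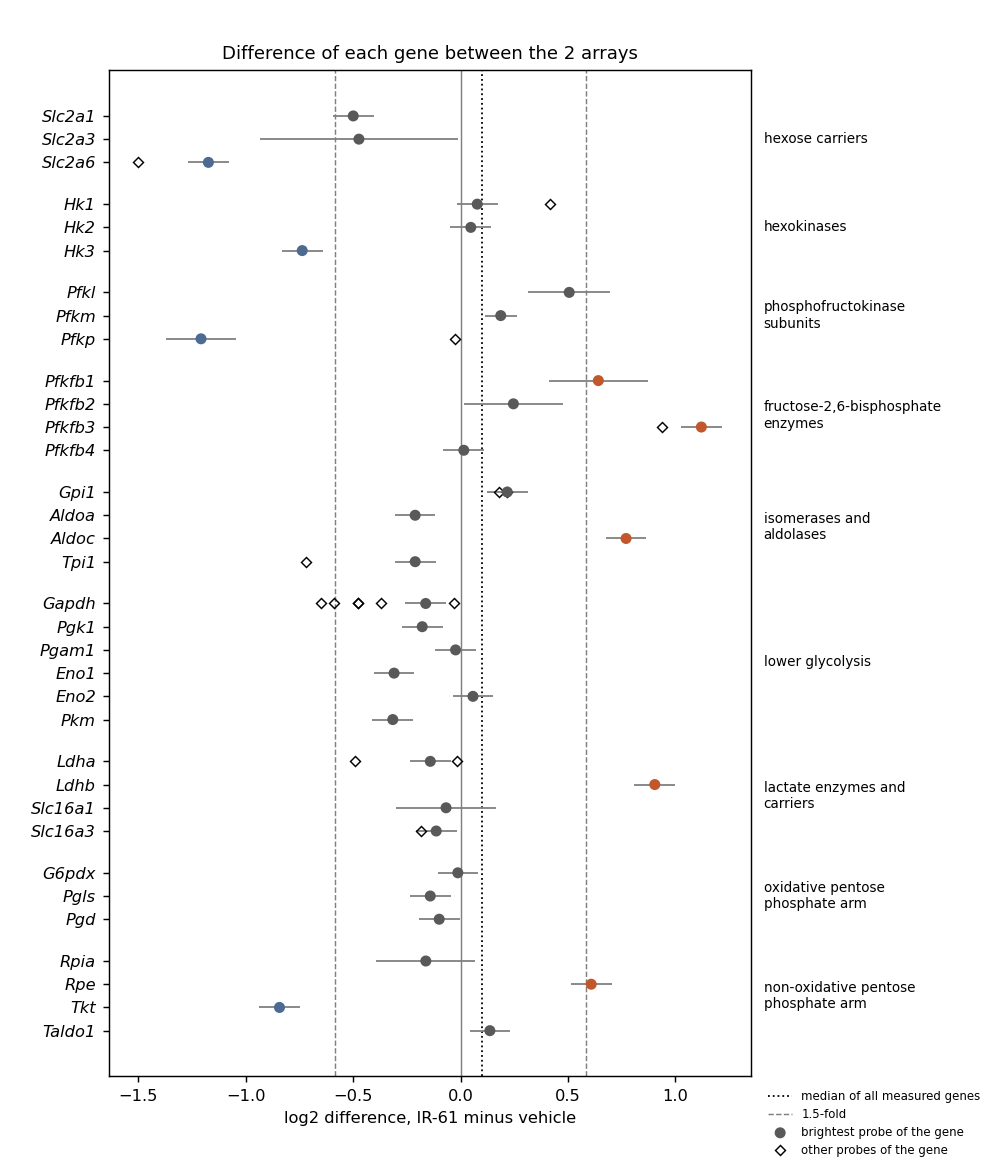
Log2 difference (IR-61 minus vehicle) of each of the 34 genes, grouped by role, with 1 array per condition. Filled points are the brightest probe of a gene, blue where lower and orange where higher past 1.5-fold (dashed lines), bars are ± 1 SD expected from the spread between spots, open diamonds are further probes of the same gene, and the dotted line is the median of all measured genes at 0.10; 9 of the 34 filled points lie outside the dashed lines.

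Glucose enters macrophages through facilitative carriers of the Slc2a family. *Slc2a1*, the broadly expressed glucose carrier known as GLUT1, had scaled log2 signals of 4.87 with vehicle and 4.37 with IR-61, a difference of −0.50 ± 0.095 (SD from spots). *Slc2a6*, a carrier of the lysosomal membrane in macrophages, had signals of 2.82 and 1.65 and a difference of −1.17, which is 2.26-fold lower. The array holds a second, dimmer probe for *Slc2a6*, and its difference was −1.50, in the same direction. *Slc2a3*, the high-affinity carrier GLUT3, had scaled log2 signals of −4.62 and −5.09 from unscaled signals of only 51.5 and 52.1, and its difference of −0.47 was about as large as the SD of 0.46 expected for so dim a probe. Of the 3 carriers *Slc2a6* alone passed the limit. Without scaling *Slc2a3* came out at 0.01, *Slc2a1* at −0.01 and *Slc2a6* at −0.69. Of the 16885 measured genes, 156 had a lower difference than *Slc2a6* and 1292 a lower difference than *Slc2a1*.

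**Figure D2:**
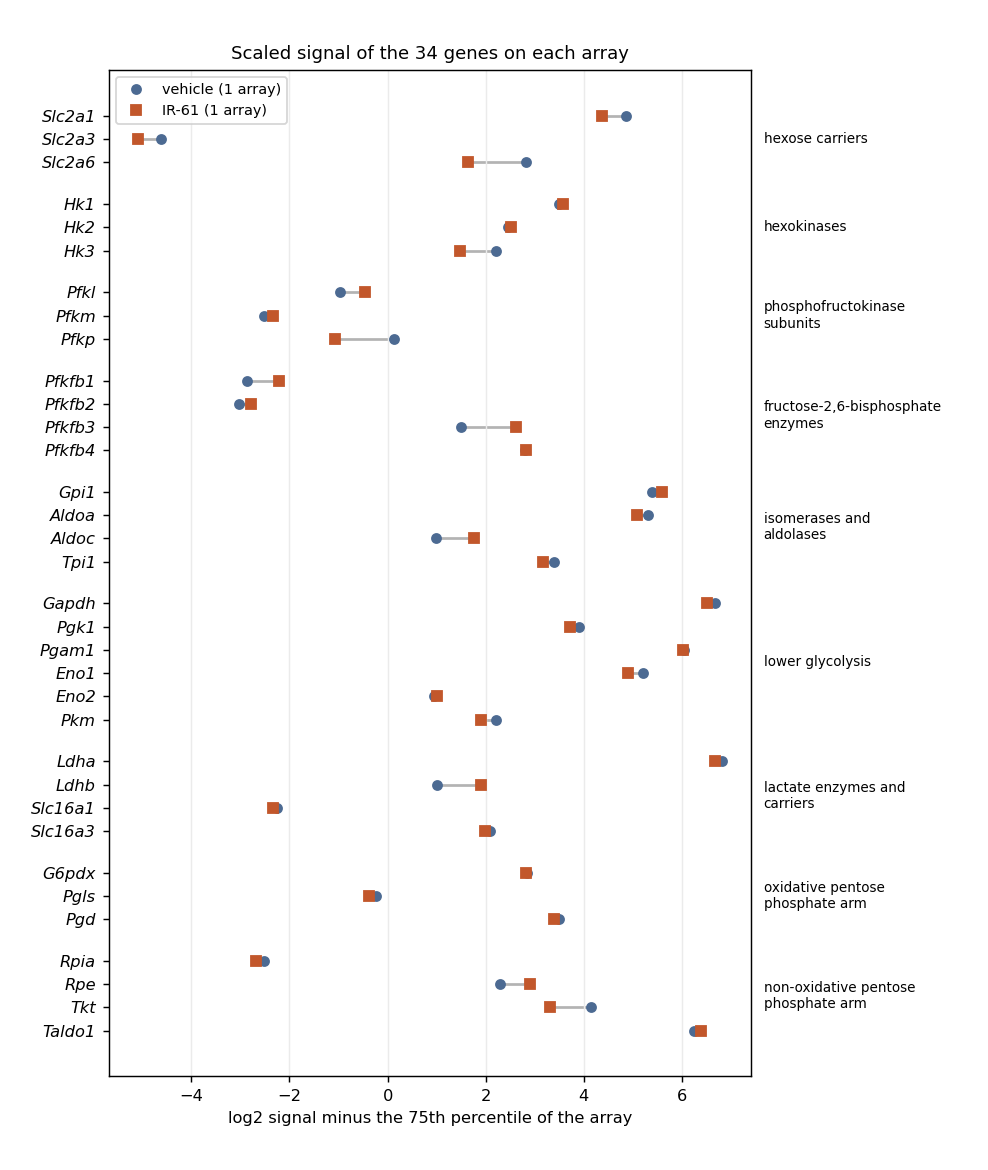
Scaled log2 signal of each gene on the vehicle array (circles) and on the IR-61 array (squares), 1 array each, grouped by role; the horizontal axis is log2 signal minus the 75th percentile of the array. Positions may be compared between the 2 symbols of a gene but not between genes, since probes differ in brightness; the longest connecting lines belong to *Pfkp*, *Slc2a6* and *Pfkfb3*.

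Hexokinases trap glucose in the cell as glucose 6-phosphate. *Hk1*, the isoform of most tissues, had scaled log2 signals of 3.49 and 3.57, a difference of 0.08. *Hk2*, the inducible isoform, had signals of 2.46 and 2.51, a difference of 0.05, so that both lay close to the all-gene median and within 1 SD from spots of 0. *Hk3*, an isoform expressed in myeloid cells, was 1.67-fold lower, with scaled signals of 2.20 and 1.47 and a difference of −0.74 ± 0.095. The difference of *Hk1* exceeded that of *Hk3* by 0.81 ± 0.13 and that of *Hk2* exceeded it by 0.78 ± 0.13 (SD from spots). Such a gap between genes is the same whichever constant is subtracted from an array, and over the other settings it stayed between 0.75 and 0.98 for these pairs. Without scaling *Hk3* no longer passed the limit, at −0.25. The dimmer probe of *Hk1* had a difference of 0.42 ± 0.23.

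Phosphofructokinase commits fructose 6-phosphate to glycolysis and is assembled from subunits of 3 genes. Their differences were unequal in size and sign. The platelet-type subunit *Pfkp* had scaled signals of 0.14 and −1.07 and was 2.31-fold lower, at −1.21 ± 0.16, with 142 of the measured genes below it. The liver-type subunit *Pfkl* had signals of −0.98 and −0.47, a difference of 0.51 ± 0.19, and the muscle-type subunit *Pfkm* had a difference of 0.19 ± 0.075, both within the limit. *Pfkm* was the 1 gene of the 34 with a probe printed 10 times. Its 10 spots on the vehicle array lay between −2.57 and −2.44, with a mean of −2.52 ± 0.04 (SD), and the 9 spots used on the IR-61 array between −2.40 and −2.12, with a mean of −2.33 ± 0.09. The distance between the arrays moves with the scaling, and the difference of *Pfkm* was 0.10 with scaling by the median and 0.09 with normexp. The gap was 1.71 ± 0.25 between *Pfkl* and *Pfkp* and 1.40 ± 0.18 between *Pfkm* and *Pfkp*. It rested on the brighter probe of *Pfkp*, because a dimmer probe of the same gene, with unscaled signals of 129 and 178, had a difference of −0.03 ± 0.23. With the mean over both probes *Pfkp* was at −0.62 and the gaps were 1.12 and 0.80.

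The upstream sequences of *Pfkl* and *Pfkp*, the subunits with the widest gap, are shown for the cores of the hypoxia response element, ACGTG and GCGTG, through which hypoxia-inducible factors are known to act on glycolytic genes. The 250 bases before the start site (RefSeq, GRCm38.p6) are given 5′ to 3′ on the strand of the gene, with a match on either strand in capitals. They are chr10:78009808-78010057 (minus strand) for *Pfkl* and chr13:6648772-6649021 (minus strand) for *Pfkp*.
Pfkl: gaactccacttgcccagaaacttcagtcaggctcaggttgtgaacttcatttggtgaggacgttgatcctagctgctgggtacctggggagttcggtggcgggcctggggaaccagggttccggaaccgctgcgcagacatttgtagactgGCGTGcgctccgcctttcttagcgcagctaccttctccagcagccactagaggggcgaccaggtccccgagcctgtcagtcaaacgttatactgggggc
Pfkp: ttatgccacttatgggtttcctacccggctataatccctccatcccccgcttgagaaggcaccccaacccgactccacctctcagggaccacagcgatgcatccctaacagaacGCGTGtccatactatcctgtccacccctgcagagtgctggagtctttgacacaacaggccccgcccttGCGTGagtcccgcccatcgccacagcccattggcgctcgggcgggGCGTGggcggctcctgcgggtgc
In this window *Pfkl* held 1 GCGTG and *Pfkp* held 3, and neither held ACGTG. A match is a description of letters and not of a bound site.

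The bifunctional enzymes of the Pfkfb family set the level of fructose 2,6-bisphosphate, the strongest known activator of phosphofructokinase. *Pfkfb3*, a known target of inflammatory and hypoxic signals, had the largest positive difference of the 34 genes. Its scaled signals were 1.49 with vehicle and 2.61 with IR-61, a difference of 1.12 ± 0.095 or 2.17-fold, and 16664 of the 16885 measured genes lay below it. A second probe, which carries another transcript accession and had unscaled signals of 40.7 and 109, gave 0.94 ± 0.38. *Pfkfb1*, the isoform known from liver, was dim, with scaled signals of −2.86 and −2.22 from unscaled signals of 174 and 381, and had a difference of 0.64 ± 0.23. It passed the limit narrowly and did not pass it with scaling by the median, at 0.56, or with normexp background correction, at 0.35. *Pfkfb2* was at 0.25 ± 0.23 and *Pfkfb4* at 0.01 ± 0.095. *Pfkfb3* thus exceeded *Pfkfb4* by 1.11 ± 0.13, between 1.01 and 1.12 over all settings.

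The upstream window of *Pfkfb3* with the most matches, chr2:11502091-11502340 (minus strand, RefSeq, GRCm38.p6), is shown because this gene had the largest positive difference, with the same letters in capitals.
Pfkfb3: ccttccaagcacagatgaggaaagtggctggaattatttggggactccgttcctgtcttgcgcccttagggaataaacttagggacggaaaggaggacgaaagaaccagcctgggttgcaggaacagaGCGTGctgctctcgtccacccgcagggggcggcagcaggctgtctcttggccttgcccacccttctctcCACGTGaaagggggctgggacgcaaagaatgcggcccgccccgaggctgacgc
It held the E-box CACGTG once, which contains ACGTG on both strands and is therefore counted as 2 matches of ACGTG, and 1 GCGTG.

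The aldolases split fructose 1,6-bisphosphate into trioses, and their genes differed from each other. *Aldoc*, the aldolase known from brain, had scaled signals of 0.99 and 1.76 and was 1.71-fold higher, at 0.77 ± 0.095. *Aldoa*, the aldolase of most glycolytic cells, was at −0.21 ± 0.095. The gap between them was 0.98 ± 0.13 and stayed between 0.91 and 0.98 over all settings. *Gpi1*, which interconverts glucose 6-phosphate and fructose 6-phosphate, gave 0.22, 0.22 and 0.18 on its 3 probes. *Tpi1*, the triose phosphate isomerase, gave −0.21 on its brighter probe and −0.72 on its dimmer one, which alone would have passed the limit.

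The 6 genes of lower glycolysis lay within the limit, from −0.32 for *Pkm* to 0.06 for *Eno2*, with a median of −0.17. All 6 were below the all-gene median, but with normexp *Pgk1*, *Pgam1* and *Eno2* were above it, as was *Pgam1* with quantile normalization and with the deposited log2 values. *Pkm*, which makes pyruvate and ATP, had scaled signals of 2.21 and 1.90, and *Eno1*, the ubiquitous enolase, of 5.20 and 4.89, a difference of −0.31. *Pgk1* and *Pgam1* were at −0.18 and −0.02. The neuronal enolase *Eno2* exceeded *Eno1* by 0.37 ± 0.13. *Gapdh*, which oxidizes glyceraldehyde 3-phosphate and is often used as a reference gene, was read by 7 probes, all negative, from −0.65 to −0.03, with a median of −0.48, so that its brightest probe at −0.16 gave one of the smaller values. Without scaling the brightest probes of all 6 genes were positive, as was the median of all genes. *Gapdh* and several other members have pseudogenes of near-identical sequence. The probe sequences were not used here, so a share of the signal from such copies was not tested.

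Lactate dehydrogenase is a tetramer of A and B subunits, of which A prevails in cells that export lactate. The B subunit gene *Ldhb* had scaled signals of 1.01 and 1.91 and was 1.87-fold higher with IR-61, at 0.90 ± 0.095, with 16407 measured genes below it. The A subunit gene *Ldha* had signals of 6.81 and 6.67, a difference of −0.14 ± 0.095, and its dimmer probes gave −0.49 and −0.02. The gap between *Ldhb* and *Ldha* was 1.05 ± 0.13 and ranged from 0.86 with quantile normalization to 1.12 with the mean over probes. The lactate carriers *Slc16a1* (MCT1) and *Slc16a3* (MCT4) differed by −0.07 ± 0.23 and −0.11 ± 0.095, and a second probe of *Slc16a3* gave −0.19.

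The windows upstream of the 2 lactate dehydrogenase genes are shown as the pair with an unequal difference at the same step, *Ldha* at chr7:46845554-46845803 (plus strand, the one of its 2 promoters with more matches) and *Ldhb* at chr6:142507958-142508207 (minus strand).
Ldha: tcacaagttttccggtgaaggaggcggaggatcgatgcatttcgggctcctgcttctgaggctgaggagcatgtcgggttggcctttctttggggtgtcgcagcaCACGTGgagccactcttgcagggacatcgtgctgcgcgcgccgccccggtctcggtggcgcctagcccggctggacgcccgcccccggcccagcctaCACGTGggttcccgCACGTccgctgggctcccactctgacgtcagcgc
Ldhb: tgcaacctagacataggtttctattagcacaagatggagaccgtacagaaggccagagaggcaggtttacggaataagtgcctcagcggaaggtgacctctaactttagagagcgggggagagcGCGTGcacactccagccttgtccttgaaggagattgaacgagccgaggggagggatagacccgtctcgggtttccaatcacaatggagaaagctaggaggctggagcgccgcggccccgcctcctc
The *Ldha* window held 5 matches of ACGTG, 4 of them from 2 copies of CACGTG, and no GCGTG. The other promoter of *Ldha* and that of *Ldhb* each held 1 GCGTG and no ACGTG.

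**Figure D3:**
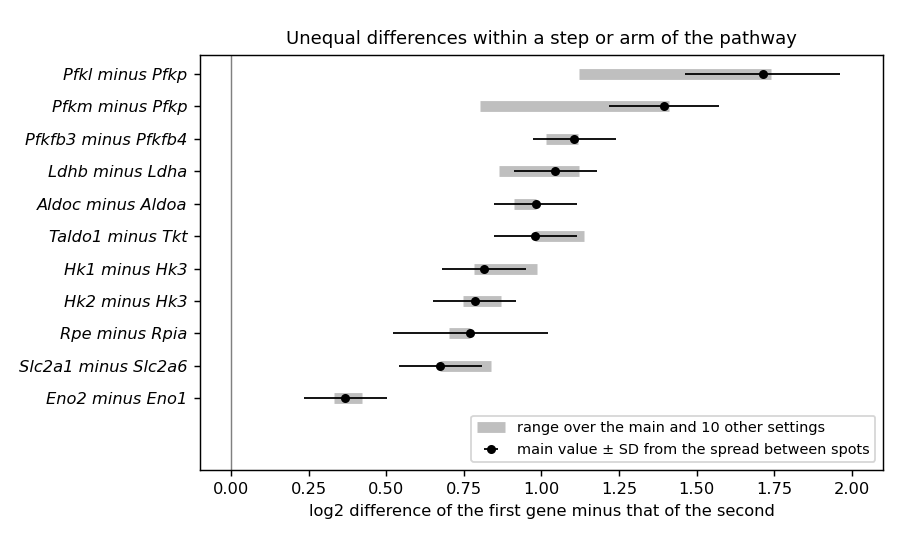
Gap between the log2 differences of 2 genes of the same step or arm (first gene minus second; pairs chosen with the values known), with points for the main value, bars for ± 1 SD expected from the spread between spots, and grey bands for the range over the main and 10 other settings. The order of the genes in a pair was set with the values known, so the sign of a gap carries no weight, and scalings by a constant cannot move it; the widest band is that of *Pfkl* minus *Pfkp*, from 1.12 to 1.74.

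The differences in the oxidative arm of the pentose phosphate pathway were small. *G6pdx*, its rate-limiting dehydrogenase, had scaled log2 signals of 2.84 and 2.82, a difference of −0.01. *Pgls*, the lactonase, had signals of −0.23 and −0.37, a difference of −0.14. *Pgd*, the second dehydrogenase that makes NADPH, had signals of 3.49 and 3.39, a difference of −0.10. Each had an expected SD of 0.095. Without scaling all 3 were positive, from 0.35 to 0.48, as was *G6pdx* with normexp, at 0.02. The non-oxidative arm was not uniform. *Tkt*, the transketolase that links pentoses back to glycolysis, had scaled signals of 4.15 and 3.30 and was 1.79-fold lower, at −0.84 ± 0.095, with 374 measured genes below it. *Taldo1*, the transaldolase that acts beside it, was at 0.14, and the gap between the pair was 0.98 ± 0.13. *Rpe*, the pentulose epimerase, had signals of 2.29 and 2.90 and a difference of 0.61, just past the limit, whereas *Rpia*, the isomerase that yields ribose 5-phosphate, was at −0.16 ± 0.23. *Rpe* fell short of the limit under 6 of the 10 other settings, with 0.52 as its lowest value. It passed without scaling, where 50.5% of all genes counted as higher. The remaining settings under which *Rpe* passed left it at 0.61, namely the mean over probes, outlier spots kept and no filter on dim probes. The call of *Rpe* thus rests on the main scaling. *Tkt* fell short only without scaling, at −0.35.

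Genes at the edges of the pathway were read from 5 further lists of 74 genes, of which 65 were measured on both arrays. Among the regulators of glycolytic genes 5 of 12 (41.7%, against 5.69% of all genes) were lower past the limit and none was higher (against 9.79%), with a median of −0.41. The list was chosen with earlier results of these data known, so these shares are a description. *Txnip*, which restrains glucose uptake, was 2.56-fold lower at −1.36, and its second probe gave −1.34. Its relative *Arrdc4* was at −0.84, with −0.57 on a second probe, the glucose-sensing partner *Mlx* at −0.65, the growth regulator *Myc* at −0.88 and the small GTPase gene *Rrad* at −1.41. The hypoxia-inducible factor gene *Hif1a* was at −0.43, within the limit, and at 0.05 without scaling. Its paralog *Epas1* gave 0.15, 0.15 and 0.10 on 3 probes. Their partner *Arnt* gave 0.23 on its brighter probe and −0.35 on its dimmer one, so that its direction is not settled. Without scaling *Txnip* and *Rrad* still passed the limit, at −0.87 and −0.92, and the remaining 3 did not.

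Of the 27 side branch genes 3 were higher (11.1%, against 9.79% of all genes) and 2 lower (7.41%, against 5.69%) past the limit, with a median of 0.16, shares near those of all genes. Among the higher genes were the glycogen phosphorylase genes *Pygl* at 0.84 and *Pygm* at 0.61, the latter from a dim probe with unscaled signals of 60.8 and 131 that passed the limit under only 4 of the 10 other settings and was at 0.21 with normexp. *Pygb*, the third phosphorylase gene, was at −0.36, and the branching enzyme *Gbe1*, which builds glycogen, at 0.56. Lower were *Phgdh*, the first enzyme of serine synthesis, at −0.67, with −0.77 on a second probe, and the mitochondrial glycerol phosphate dehydrogenase *Gpd2* at −0.66. None of the 6 measured gluconeogenic genes and none of the 10 further carriers measured passed the limit. Of all genes 5.69% were lower and 9.79% higher past it, and lists this short can hold none at such shares. Of the 10 minor isoforms measured 1 was higher (10%, against 9.79% of all genes) and 2 were lower (20%, against 5.69%) past the limit. *Hkdc1* was higher, at 0.77 ± 0.46 from unscaled signals of 17.2 and 41.2 but −0.10 with normexp. *Pgam2* and *G6pd2* were lower, at −0.66 and −0.71. Without scaling none of these 4 lower genes passed the limit, with *Phgdh* and *Gpd2* at −0.18, *Pgam2* at −0.17 and *G6pd2* at −0.23. *G6pd2* is a near copy of *G6pdx*, so its probe may share signal with that gene, which was not tested. Another 4 minor isoforms were above background on 1 array only.

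**Figure D4:**
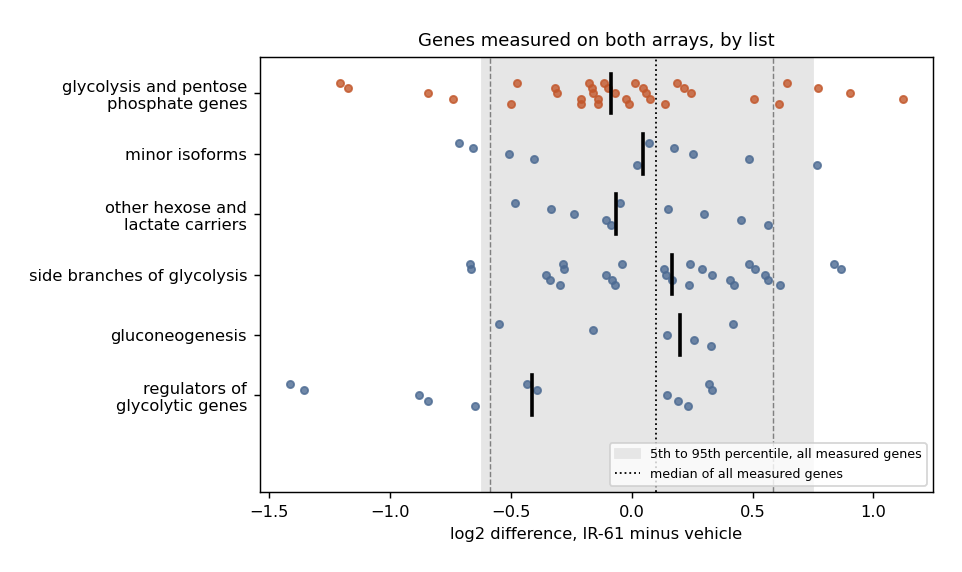
Log2 differences (IR-61 minus vehicle, 1 array each) of the genes measured on both arrays, for the 34 pathway genes (orange) and 5 further lists (blue); black bars are list medians, dashed lines mark 1.5-fold, the grey band runs from the 5th to the 95th percentile of all measured genes (−0.62 to 0.75) and vertical scatter is for display. The regulators have the lowest list median, at −0.41, with *Rrad* and *Txnip* farthest to the left.

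Upstream windows of the same 250 bases were read for 33 of the 34 genes, all but *Slc2a3*. Over 51 promoters of these genes 76.5% held ACGTG or GCGTG on either strand, against 38.6% of all 32851 promoters, and ACGTG alone was in 33.3% against 16.6%. CACGTG was in 9.80% against 6.02%. The promoters of these genes also had more G and C, with a median of 59.2% against 52.4%, and the part of base composition in these shares was not tested. By gene, at least 1 match was present in 87.9% of the 33 genes, against 41.5% of all 27025 genes with a promoter. It was present in 4 of the 4 lower, 4 of the 5 higher and 21 of the 24 remaining genes with a window. A gene with several promoters has more windows for a match, which bears on every share by gene. The 33 genes had 51 promoters, and all 27025 genes had 32851. The 27025 genes also include some that were not well above background here. The 5 higher genes had 10 promoters, 6 of them with a match. The matches were thus present in genes of either direction, and *Rpe* was the 1 gene past the limit without any.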

How the data were processed

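RNA of 1 vehicle-treated and 1 IR-61-treated RAW264.7 culture was read on 1 array each. The deposited spot tables hold 1 intensity per spot, from which Agilent Feature Extraction 11.0.1.1 (per the file headers; the labels give 11.0.0.1 and the methods an earlier version) had already removed background, beside other columns that flag outliers, saturation or detection above background as 0 or 1. They also deposited a table of log2 values without saying how it was made. Its columns share their quartiles, as quantile normalization gives, and followed the log2 intensities with Pearson r of 0.9995 and 0.9988 across probes. No column of the authors' own comparisons was used.

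Control spots and outlier spots (124 and 139) were left out, no spot was saturated, log2 intensities were averaged over the spots of a probe, and each array was scaled by subtracting its 75th percentile (log2). Of 39419 probes used, 27224 were named through RefSeq accessions (GRCm38.p6, names only, since the array design is on mm9). A gene took its brightest probe, and 5473 genes had several. The share of probes well above background was 77.6% with vehicle and 81.2% with IR-61. The spread between spots came from probes printed 10 times. The number of arrays limits the precision. The steps were tested on data simulated from the vehicle array with spot noise and known changes. Such data hold no difference between cultures.

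Members, lists, pairs and the rule for the genes named (every member, and further pathway genes past 1.5-fold) were chosen with earlier results of these data known, and the promoters shown after the values were seen. Genes outside the rule named after their values were seen are *Hif1a*, *Epas1*, *Arnt*, *Pygb* and *Gbe1*. One side branch gene past the limit is not reported here. The alternatives were 5 other scalings, the deposited log2 values, normexp, the mean over probes, outlier spots kept, no filter on dim probes and a 2-fold limit. Normexp included an offset of 50 added to each signal, which weighs most on dim probes. The software was limma 3.58.1 under R 4.3.3, and numpy 2.4.6, pandas 2.3.3 and matplotlib 3.10.9 under Python 3.11.15.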

Additional observations from a re-analysis of the deposited data

How the results depend on the processing

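No paired analysis was possible because there was a single array for vehicle and a single one for IR-61. Without scaling the median of the 34 genes was 0.40 in place of −0.08. Of the 34 genes 2 were then lower in place of 4 and 10 were higher in place of 5. The median of all measured genes moved as well, from 0.10 to 0.59, and 50.5% of all genes counted as higher and 1.14% as lower. With scaling by the median and with normexp background correction (run on the median spot signal, as the files give no mean) 3 genes were higher, *Pfkfb1* and *Rpe* falling short. The shares of all genes that were higher also fell, to 7.01% and 5.14%. In both settings 4 of the 34 genes were lower, against 7.57% and 4.44% of all genes. With the 2-fold limit 2 were lower and 1 was higher, against 1.39% and 1.99% of all genes. Under the remaining settings the number lower was 4 or 5 and the number higher 4 or 5, and *Slc2a3* was added to the lower genes with quantile normalization, cyclic loess and the deposited values. *Slc2a6*, *Pfkp*, *Pfkfb3*, *Aldoc* and *Ldhb* passed the 1.5-fold limit in the same direction under all 10 other settings, *Hk3* and *Tkt* under all but no scaling. Not all of these settings could move a gene. Values stayed the same without the filter on dim probes and, for genes with 1 probe, under the mean over probes. Keeping outlier spots moved these genes little, and the deposited values came close to quantile normalization. *Pfkp* passed on its brighter probe, with −0.62 under the mean over probes, whereas its dimmer probe gave −0.03. None of the 9 genes past the limit changed sign. With normexp 17 of the 34 genes lay below the all-gene median, in place of 24, and 23 or 24 did under the others. Dim probes limit what can be said of *Slc2a3*, *Pfkfb1*, *Pfkfb2*, *Rpia* and *Slc16a1*, whose differences had expected SDs of 0.23 to 0.46.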
